A study of Mus musculus with 4 samples.

Results

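The replication-dependent histone genes were examined in cultured lung endothelial cells, taken as every gene of the deposited expression table whose symbol starts with Hist1h, Hist2h, Hist3h or Hist4h. The rule found 68 genes of 23997. They comprised 6 genes for the linker histone H1, 18 for H2A, 19 for H2B, 12 for H3 and 13 for H4. In the annotation 54 lie on chromosome 13, 10 on chromosome 3, 3 on chromosome 11 and 1 on chromosome 6 of mouse genome build mm10. One of them, Hist3h2bb-ps, is annotated as a processed pseudogene.

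The cells, which line lung vessels, came from C57BL/6 mice and were kept in EBM-2 medium with 10% serum. Total RNA was taken from them for sequencing, and how RNA was selected for the libraries is not stated. All groups were treated for 48 h with an siRNA, either a control siRNA or one against the glucocorticoid receptor (GR, encoded by Nr3c1), and were left without or given 100 nM of the synthetic GR ligand dexamethasone (DEX) for 18 h. This gave 4 groups: control siRNA, control siRNA + DEX, GR siRNA and GR siRNA + DEX. The submitters describe triplicates, while the table holds 1 column for each group, so values have no SD and no test, and every difference compares 1 column with another, without a check by replicates.

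Values are FPKM, fragment numbers divided by the length of the transcript and the size of the library. Nr3c1 was 14.4 and 14.3 FPKM in the control siRNA columns without and with DEX, and 5.45 and 5.32 FPKM in the GR siRNA columns. Endothelial markers were high, with Cdh5 between 384 and 436 FPKM and Pecam1 between 275 and 282 FPKM. Of the leukocyte markers Ptprc was 0 in every column, although Cd68, which encodes a lysosomal protein, was 161 to 218 FPKM, and lung epithelial markers did not pass 3.10 FPKM. Fibroblast and mural markers summed to 6.40 to 6.61 FPKM with control siRNA and to 11.4 to 12.3 FPKM with GR siRNA; their part in the results was not tested.

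Core histones (H2A, H2B, H3 and H4) form the protein spool around which DNA is wrapped, and H1 binds the linker DNA between spools. The replication-dependent genes supply these proteins while DNA is copied in S phase. Their mRNAs are unusual: most end not in a poly(A) tail but just after a conserved stem-loop, which the stem-loop binding protein SLBP holds and which the U7 small nuclear ribonucleoprotein helps to cut. Some of these genes can also give polyadenylated transcripts when the cleavage machinery reads on past the stem-loop, a form known from differentiated cells. The replication-independent variants, such as H3.3 and H2A.Z, come from ordinary polyadenylated mRNAs throughout the cell cycle.

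The stem-loop is the feature by which these transcripts are recognised, and the 16 letters were found in the 3′ untranslated region of the longest GENCODE M21 transcript of 45 of the 68 members. They started 21 to 58 nt after the stop codon, with a median of 31 nt. The stem-loops of the 3 high-level members (a mean of at least 5 FPKM over the columns) that have one, and of 3 low-level members for contrast, are given here 5′ to 3′ as DNA letters from the annotated transcripts, with the 16-letter stem-loop in capitals and 6 flanking letters on each side.
Hist1h1c: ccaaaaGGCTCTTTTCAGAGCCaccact
Hist3h2a: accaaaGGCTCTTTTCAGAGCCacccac
Hist1h4i: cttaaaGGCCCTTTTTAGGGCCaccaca
Hist1h3c: aaaaaaGGCTCTTTTAAGAGCCacctaa
Hist1h4d: accaaaGGCCCTTTTCAGGGCCactacc
Hist2h4: cctaacGGCCCTTTTTAGGGCCaaccac
The form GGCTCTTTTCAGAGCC was the most frequent, in 25 members of the H1, H2A, H2B and H3 classes, and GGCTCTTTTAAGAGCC stood in 6 members. H4 genes carried other letters in the stem: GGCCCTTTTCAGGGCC stood in 7 of them, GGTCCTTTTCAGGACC in 2 and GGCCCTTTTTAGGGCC in 2. The high-level H4 gene Hist1h4i and the low-level H4 gene Hist2h4 held the same 16 letters. The other 23 members had no match in the annotated transcript, and in 18 of these the annotated 3′ untranslated region was under 50 nt or absent, which left little sequence to search.

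Most replication-dependent histone genes were close to the floor of the measurement. The median over the 68 members of the mean of the 4 columns was 0.352 FPKM. A mean of at least 5 FPKM was reached by 5 members, 5 others had means between 1 and 5 FPKM, 45 lay under 0.5 FPKM, and 5 members (Hist1h2bq, Hist1h2br, Hist1h4n, Hist2h3c1 and Hist2h3c2) were listed at 0 in all 4 columns. The 68 members together summed to 92.0 FPKM with control siRNA, 87.3 with control siRNA + DEX, 69.8 with GR siRNA and 98.9 with GR siRNA + DEX, which was 0.0130 to 0.0178% of the summed FPKM of a column. In RNA from a whole culture, fewer cells in S phase and less histone RNA per cell cannot be told apart. The part of library selection, which is not stated, was not tested. The split at a mean of 5 FPKM was set with the values in view and serves as a description: the member just above it was Hist1h2an (mean 9.30 FPKM) and the one just below it Hist1h4d (mean 2.20 FPKM).

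Most genes of DNA replication, mitosis and histone handling stood higher. The clamp protein gene Pcna, a hallmark of replicating DNA, was 233 to 262 FPKM, and the 50 DNA replication genes of the list had a median of 32.8 FPKM, all of them at a mean of at least 1 FPKM. The 25 mitosis genes had a median of 44.8 FPKM and the 28 histone chaperones, proteins that carry histones to DNA, a median of 48.7 FPKM. Slbp, which encodes the stem-loop binding protein itself, was 44.7 FPKM with control siRNA, 46.8 with control siRNA + DEX, 44.1 with GR siRNA and 42.5 with GR siRNA + DEX. Npat, which encodes the cyclin E target that switches histone genes on in S phase, was 8.87, 7.77, 7.25 and 7.24 FPKM in the same order. The 37 genes of histone mRNA processing and transcription had a median of 17.1 FPKM, and 34 of them a mean of at least 1 FPKM. Genes for proteins of the U7 particle and its partners lay under Slbp, at unlike levels. Lsm11 was 2.77 to 3.04 FPKM and Zfp473 0.312 to 0.539 FPKM, among the lowest of the list. Lsm10 was 16.4 to 18.0 FPKM and Sympk 35.4 to 39.4 FPKM.

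The highest histone values of the table came from a few replication-independent variants, while 11 of the 19 in the list had a mean of at least 1 FPKM. H2afz, for the variant H2A.Z, was 440, 460, 372 and 373 FPKM in the order control siRNA, control siRNA + DEX, GR siRNA and GR siRNA + DEX. The H3.3 gene H3f3a was 379, 383, 278 and 294 FPKM, and H3f3b, which encodes the same protein, was 287, 303, 292 and 310 FPKM. The linker variant gene H1f0, known from cells that leave the cycle, was 233, 238, 198 and 205 FPKM, against 14.6, 13.1, 13.9 and 14.8 FPKM of Hist1h1c. H2afx, whose transcript can end in either way, was 58.8 to 69.0 FPKM, and the centromere variant Cenpa was 64.5, 67.5, 49.8 and 48.6 FPKM. H3f3a, H2afz, H1f0 and Cenpa were lower in both GR siRNA columns than in both control columns, while H3f3b was not.

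**Figure D1:**
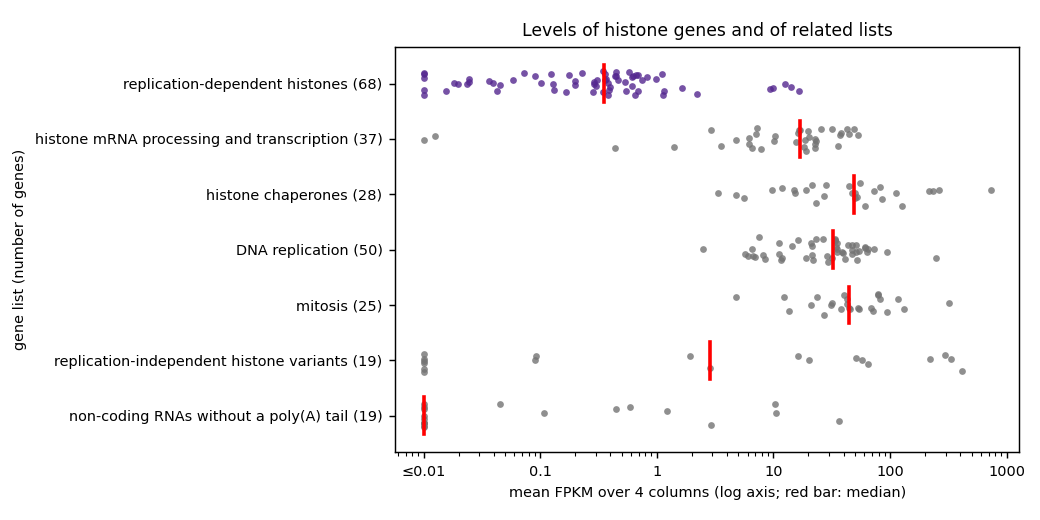
Mean FPKM over the 4 columns (log axis, values under 0.01 drawn at 0.01) of each of the 68 replication-dependent histone genes and of the genes of 6 related lists, with 1 point per gene and a red bar at the median. The histone genes centre on 0.352 FPKM with 5 points above 5 FPKM, while the lists of DNA replication, mitosis and chaperones centre on 32.8, 44.8 and 48.7 FPKM.

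Non-coding RNAs that carry no poly(A) tail had no common level in this table. Of the 19 listed ones found in it, 5 had a mean of at least 1 FPKM and 10 were listed at 0 in all columns. Some listed at 0, such as Rnu7, the RNA of the U7 particle, are used by every dividing cell, so a 0 may be a failed estimate and is not read as a level. Malat1, a nuclear RNA, was 30.95 to 43.9 FPKM. Rmrp and Rpph1, the RNA components of RNase MRP and RNase P, were 17.2 and 18.8 FPKM with control siRNA, the highest of the 4 columns for each. Whether the libraries were made by poly(A) selection or by removal of ribosomal RNA is not stated in the labels or the deposited table used here, and its part in the level of the histone genes was not tested.

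The level of a member was set against the annotated 3′ end of its longest transcript. In 22 members the transcript ended within 75 nt of the stem-loop, and none of these had a mean above 1.63 FPKM (Hist1h3c). The limit of 75 nt serves as a description and does not mark cut transcripts. Hist1h3c, with 74 nt after the stem-loop, lay just inside it. In 23 members it ran on for more than 75 nt, and 3 of these had a mean of at least 5 FPKM. Those 3, Hist1h1c, Hist3h2a and Hist1h4i, had 840, 1643 and 330 nt after the stem-loop and a poly(A) signal (AATAAA or ATTAAA) in the last 50 nt. Not every high-level member had these features. Hist1h2bc (mean 16.5 FPKM) and Hist1h2an (mean 9.30 FPKM) had neither a stem-loop match nor such a signal in the annotated transcript. A longer annotated end was not enough for a high level: 12 members had both a longer end and a signal, and the other 9 lay under 5 FPKM, among them Hist2h4 with 1257 nt after the stem-loop and 0.0966 to 1.15 FPKM. The medians of the groups with a short and a long end were 0.326 and 0.451 FPKM. Annotated lengths are those of GENCODE M21, and which gene models lie behind the deposited FPKM is not given.

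**Figure D2:**
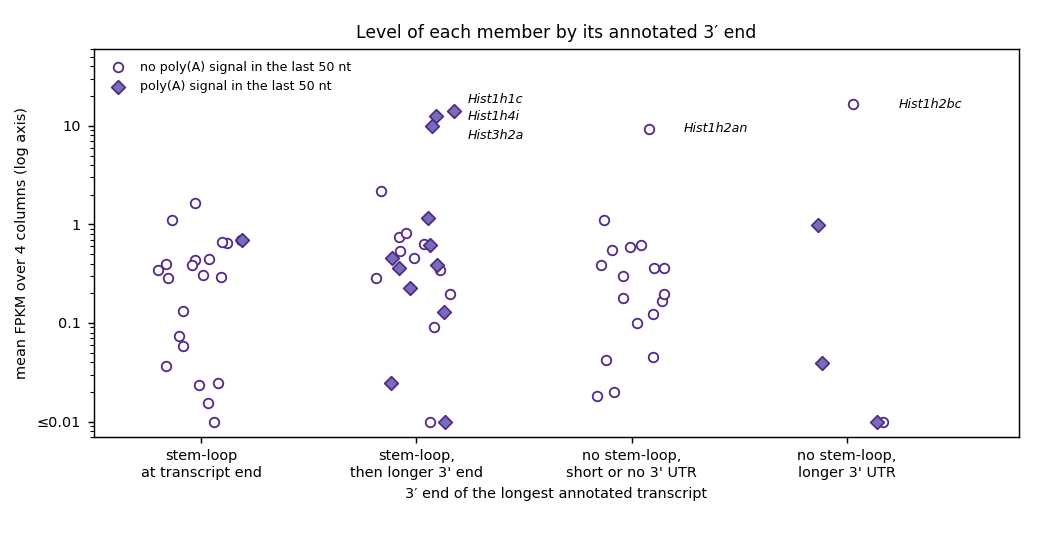
Mean FPKM over the 4 columns (log axis, values under 0.01 drawn at 0.01) of each of the 68 members, grouped by the annotated 3′ end of the longest transcript, with filled diamonds for transcripts that hold a poly(A) signal in the last 50 nt and open circles for the others. No member whose transcript ends within 75 nt of the stem-loop (the group labelled as a stem-loop at the transcript end) exceeds a mean of 1.63 FPKM. The 5 named members lie above 5 FPKM.

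Among linker histones, Hist1h1c, the gene for H1.2 (chr13:23738808-23740367, plus strand, 1 exon), led the class. It was 14.6 FPKM with control siRNA, 13.1 with control siRNA + DEX, 13.9 with GR siRNA and 14.8 with GR siRNA + DEX. The 4 columns lay close together, and the largest difference on the log2(FPKM + 1) scale was 0.16, between GR siRNA + DEX and control siRNA + DEX. Of its 31-letter stretches, 11.4% occur in another gene. The other 5 H1 genes were low. Hist1h1d (H1.3) was 1.05, 0.825, 0.458 and 0.677 FPKM, Hist1h1e (H1.4) 0.945, 0.408, 0.423 and 0.372 FPKM, and the testis-specific Hist1h1t was 0 in 3 columns and 0.0986 FPKM with GR siRNA.

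In the H2A class the levels came from Hist3h2a and Hist1h2an. Hist3h2a (chr11:58954685-58956830, plus strand, 1 exon) was 9.92 FPKM with control siRNA, 9.72 with control siRNA + DEX, 10.7 with GR siRNA and 9.62 with GR siRNA + DEX, so its columns stayed within 0.14 of one another on the log2(FPKM + 1) scale for each comparison. Its exon overlaps one of Trim17 on the same strand, and Trim17 did not pass 0.141 FPKM. Hist1h2an (chr13:21786826-21787218, minus strand, 1 exon) had the largest log2(FPKM + 1) differences of the members. It was 8.66, 9.10, 2.29 and 17.2 FPKM in the same order. The control columns were alike, the GR siRNA column was the lowest and the GR siRNA + DEX column the highest. On the log2(FPKM + 1) scale the GR siRNA difference was -1.55 without DEX but 0.85 under DEX.

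These values of Hist1h2an are not those of a well separated gene. Its annotated transcript is 393 nt, the coding sequence with no untranslated region, and 89.0% of its 31-letter stretches occur in other genes, 17 of them members. It also overlaps Gm44346 on the opposite strand. The other 16 H2A members under 5 FPKM summed to 4.28, 4.70, 3.69 and 4.96 FPKM, which did not show the spread of Hist1h2an. The whole class summed to 22.9, 23.5, 16.7 and 31.7 FPKM, with log2 ratios of -0.45 for GR siRNA against control siRNA without DEX, 0.43 under DEX, and 0.93 for DEX in GR siRNA cells. Without Hist1h2an these were 0.022, 0.016 and 0.016.

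The H2B class was led by Hist1h2bc (chr13:23684199-23692908, plus strand), the most abundant member of all. It was 16.98 FPKM with control siRNA, 19.3 with control siRNA + DEX, 12.9 with GR siRNA and 16.9 with GR siRNA + DEX. The GR siRNA column was the lowest, and GR siRNA differed from control siRNA by -0.38 on the log2(FPKM + 1) scale without DEX and by -0.18 under DEX. Its annotated transcript differs from those of most members: it has 2 exons and a 3′ untranslated region of 742 nt without a stem-loop match, and 33.7% of its 31-letter stretches occur in other genes. Hist2h2bb was 1.44 and 1.76 FPKM in the control columns and 0.543 and 0.744 FPKM in the GR siRNA columns, with both GR siRNA values under both control values. However, 59.3% of its 31-letter stretches occur in other genes, and its exon overlaps those of Gm20628 and Gm42743. Hist2h2be, with 2.8% of its 31-letter stretches in other genes, was 0.830, 0.828, 1.12 and 1.12 FPKM, a small difference the other way.

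H2A and H2B genes stand in pairs that share the DNA between them. In the annotation 13 pairs of members started on opposite strands within 172 to 305 bp of each other. Each was an H2A with an H2B member, counting the pseudogene Hist3h2bb-ps as H2B. In 10 of the pairs both members had means under 1.5 FPKM, and in 5 of the 13 the means lay within 2-fold of each other. Hist1h2ag and Hist1h2bj, for example, were 0.679 and 0.692 FPKM with control siRNA. The other 3 pairs held a high-level member, and its partner was low. In 1 of these 3 the low partner, of Hist3h2a, was the pseudogene Hist3h2bb-ps. Hist1h2ac lies 250 bp from Hist1h2bc and was 0.184, 0.320, 0.0616 and 0.228 FPKM, while Hist1h2bc was at 12.9 to 19.3 FPKM. Hist1h2bp lies 242 bp from Hist1h2an and was 0, 0.0465, 0 and 0.110 FPKM. The stretches between the GENCODE starts of these pairs are shown because they hold promoter sequence of both genes of a pair. They are RefSeq sequence of build GRCm38.p6, plus strand, 5′ to 3′. The first is chr13:23683949-23684198 and the second chr13:21787219-21787460. The GENCODE transcript of Hist1h2an starts at its coding sequence, and the RefSeq start lies within the second stretch, so part of that stretch may be transcribed. Capitals mark, on either strand, the CCAAT box, the TATA box TATAAA and an octamer, ATTTGCAT.
Hist1h2ac-Hist1h2bc: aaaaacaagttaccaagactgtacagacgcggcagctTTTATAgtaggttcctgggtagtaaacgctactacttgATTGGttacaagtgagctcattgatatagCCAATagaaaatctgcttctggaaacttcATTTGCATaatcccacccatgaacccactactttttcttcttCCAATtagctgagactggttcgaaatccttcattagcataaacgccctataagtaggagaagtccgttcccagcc
Hist1h2an-Hist1h2bp: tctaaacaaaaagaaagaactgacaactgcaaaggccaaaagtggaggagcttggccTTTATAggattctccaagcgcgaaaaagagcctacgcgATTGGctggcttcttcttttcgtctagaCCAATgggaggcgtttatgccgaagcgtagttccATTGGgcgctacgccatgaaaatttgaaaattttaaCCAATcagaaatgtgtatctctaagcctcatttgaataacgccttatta
The first holds 3 CCAAT boxes, 1 TATAAA and 1 octamer, and the second 4 CCAAT boxes, 1 TATAAA and no octamer. CCAAT is the site of NF-Y, TATAAA the TATA box, and the octamer is bound by POU factors and known from H2B promoters.

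Promoters from 250 bases before to 50 after a start site were held for 61 members in the RefSeq table. CCAAT stood on either strand in 52 of the 61, against 37.41% of all 32851 promoters in the table, and TATAAA in 35 of 61, against 13.62%. The octamer ATTTGCAT was found in 7 of 17 H2A and 7 of 16 H2B members and in 0 of 6 H1, 0 of 10 H3 and 0 of 12 H4 members, against 1.74% of all promoters. The motif AAACACA, the H1 box, stood in 5 of 6 H1 members, Hist1h1c among them, and in 7.18% of all promoters. Of H4 members 3 of 12 held CCAAT. These are matches of letters, and they describe the members without bearing on the differences between columns.

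All H3 members were low. The class summed to 4.43, 4.12, 3.50 and 4.03 FPKM in the order control siRNA, control siRNA + DEX, GR siRNA and GR siRNA + DEX. Hist1h3c was the highest, at 1.41, 2.04, 1.14 and 1.95 FPKM, with both DEX columns above both columns without DEX. These values rested on 15, 31, 18 and 25 fragments. The exact binomial 95% intervals of the DEX ratio included 1, at 0.755 to 2.87 in control siRNA cells and 0.898 to 3.33 in GR siRNA cells. Hist1h3b was 1.01 FPKM with control siRNA and 0.141, 0 and 0.0836 FPKM in the other columns.

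In the H4 class, whose genes all encode one protein, Hist1h4i (chr13:22040636-22041362, minus strand, 1 exon) was the highest. It was 12.9 FPKM with control siRNA, 11.6 with control siRNA + DEX, 11.6 with GR siRNA and 14.02 with GR siRNA + DEX, with no log2 difference beyond 0.26 in any comparison. The low-level H4 genes spread further, on few fragments. Hist1h4d was 3.63, 1.65, 1.06 and 2.48 FPKM, highest with control siRNA and lowest with GR siRNA. Hist1h4f was 1.17, 0.468, 0 and 1.11 FPKM, Hist1h4c was 1.06, 0.634, 0.203 and 1.38 FPKM, and Hist2h4 was 1.15, 0.603, 0.0966 and 0.596 FPKM. These 4 genes were lowest in the GR siRNA column, where they rested on 10, 0, 2 and 1 fragments, and so was Hist1h4h. The class was not uniform: of 11 low-level H4 genes above 0 in a column, 8 were lower with GR siRNA than with control siRNA and 3 higher, among them Hist4h4 (0 and 0.297 FPKM in these columns). Of all genes with at least 1 FPKM in either column, a set not matched for level, 5983 of 11325 were lower. Hist1h4k was 1.01 FPKM with control siRNA and lowest, at 0.314 FPKM, with GR siRNA + DEX. The 12 low-level H4 genes summed to 10.7, 6.21, 3.92 and 8.88 FPKM.

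**Figure D3:**
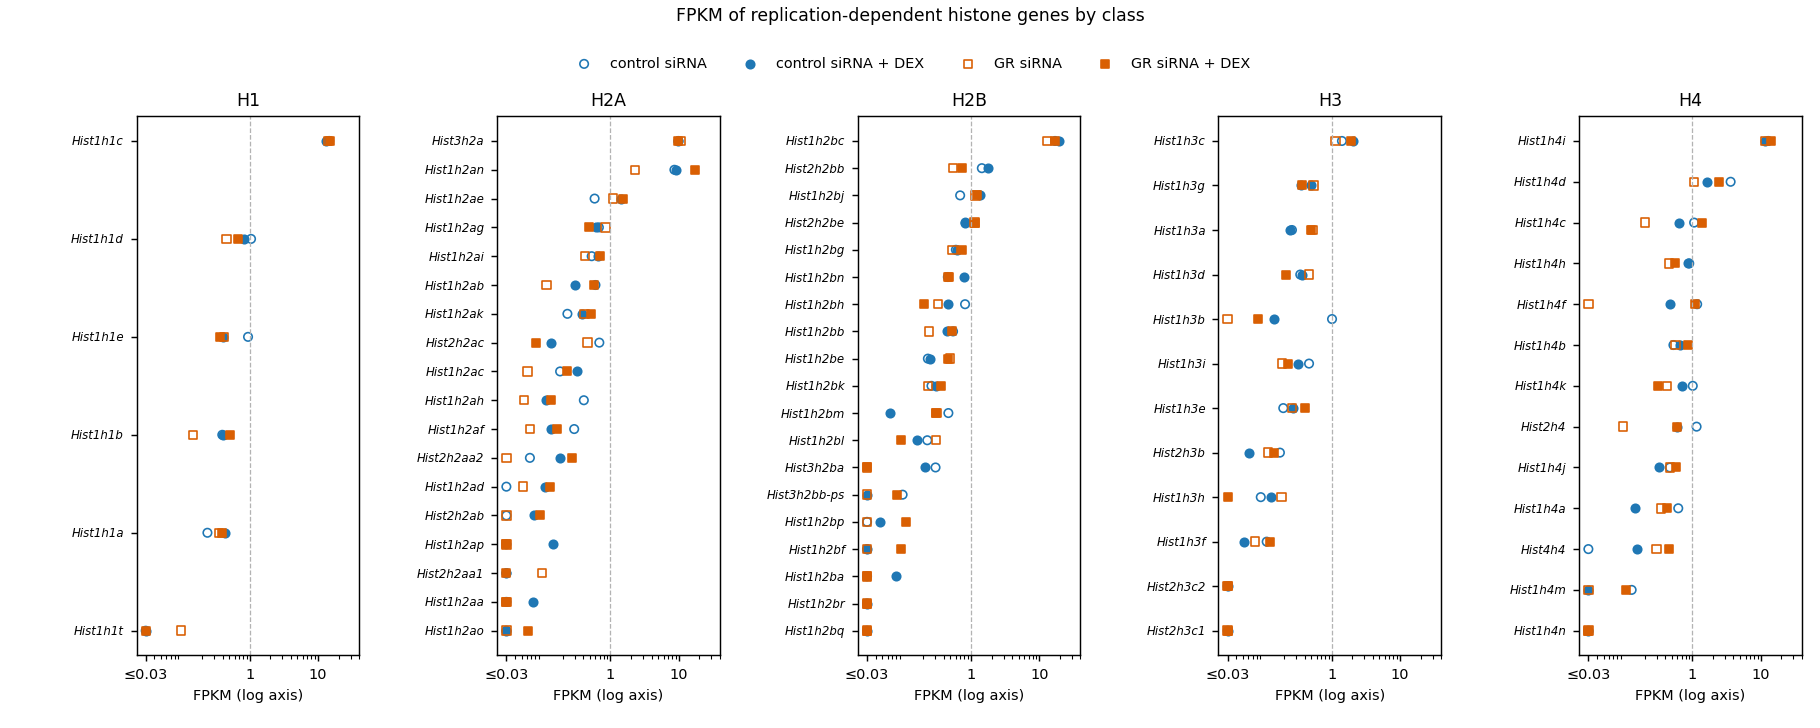
FPKM (log axis, values under 0.03 drawn at 0.03) of each of the 68 members in 5 panels by histone class, with circles for control siRNA and squares for GR siRNA, filled where DEX was given and open otherwise; the dashed line marks 1 FPKM. Hist1h1c, Hist3h2a, Hist1h2an, Hist1h2bc and Hist1h4i stand apart at the top of their panels, and Hist1h2an spans 2.29 to 17.2 FPKM.

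Summed by class, the 4 columns differed by less than 1.5-fold for H1, H2B and H3. H1 summed to 17.2, 15.2, 15.4 and 16.8 FPKM and H2B to 23.95, 26.7, 18.6 and 23.5 FPKM. H4 summed to 23.6, 17.8, 15.6 and 22.9 FPKM, a log2 ratio of -0.60 for GR siRNA against control siRNA without DEX and of 0.37 with DEX. Without Hist1h4i the first of these was -1.45. For all 68 members the log2 ratio of the sums was -0.40 for GR siRNA against control siRNA without DEX, 0.18 with DEX, -0.08 for DEX in control cells and 0.50 for DEX in GR siRNA cells. The 4 high-level members other than Hist1h2an summed to 54.4, 53.7, 49.1 and 55.4 FPKM, a narrower span than that of Hist1h2an alone or of the low-level genes together.

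**Figure D4:**
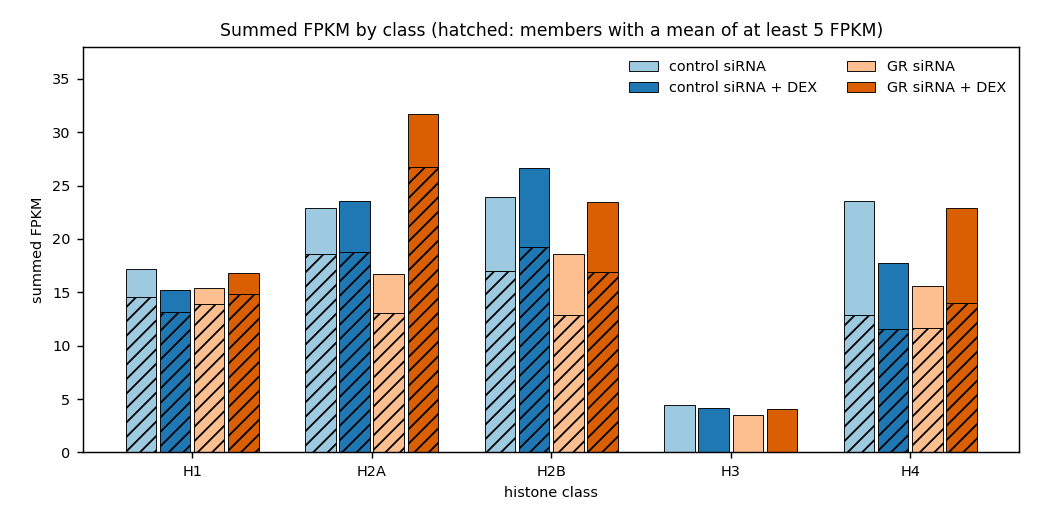
Summed FPKM (linear axis from 0) of the members of each histone class in the 4 columns, with the hatched part from members whose mean is at least 5 FPKM and the plain part from the others. The H2A sum runs from 16.7 to 31.7 FPKM through its hatched part, and the H4 sum from 15.6 to 23.6 FPKM mostly through its plain part.

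Members were counted one by one at 1.5-fold on the log2(FPKM + 1) scale, where either compared column reached 1 FPKM. For GR siRNA against control siRNA without DEX 17 members passed this filter, 10 of them through 1 column alone, and these had to differ. Of the 17, 7 were lower and 0 higher, beside 2.54% of all 11325 genes lower and 2.36% higher. The 7 were Hist1h2an, Hist1h3b, Hist1h4c, Hist1h4d, Hist1h4f, Hist2h2bb and Hist2h4. With DEX in both arms 13 passed, 4 through 1 column; Hist1h2an was higher and Hist2h2bb lower, beside 2.36% of all genes higher and 2.62% lower. Hist2h2bb was thus the only member counted as lower at 1.5-fold with GR siRNA in both DEX states, with log2 differences of -0.66 in each state. It rested on 16, 28, 9 and 10 fragments with control siRNA, control siRNA + DEX, GR siRNA and GR siRNA + DEX. Smaller differences below 0 in both states occurred too, for example in Hist1h2bc. For DEX in control siRNA cells 16 passed, with Hist1h2ae higher and Hist1h3b and Hist1h4d lower, beside 0.686% and 0.392% of all genes. For DEX in GR siRNA cells 12 passed, with Hist1h2an, Hist1h4c, Hist1h4d and Hist1h4f higher and 0 lower, beside 0.531% and 0.645%. Of these 16 and 12 members, 8 and 2 passed through 1 column. The median log2 difference of the members kept was -0.49, 0.16, -0.14 and 0.32 in these 4 comparisons, beside medians between -0.01 and 0.00 for all genes. A gene that passes through 1 column is high there by construction, so these counts and medians are descriptions and support no direction. The comparisons share columns: the GR siRNA column enters both the first and the last.

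The low values could be traced to whole fragments, which shows how little stands behind them. After scaling by the relative depth of the columns, the 4 values of 54 members were whole multiples of a common unit within 0.05 of a fragment. The relative depth, read from the value of 1 fragment in genes under 0.1 FPKM, was 0.671 for control siRNA, 0.962 for control siRNA + DEX and 0.811 for GR siRNA + DEX, with GR siRNA as 1. For these members 1 fragment was worth 0.0250 to 0.203 FPKM in the GR siRNA column. The fragment numbers are the smallest that give the values, so true numbers can be a multiple of them. Hist1h2an came out at 81, 122, 32 and 194 fragments, and the ratio of GR siRNA to control siRNA at equal depth was 0.265 (exact binomial 95% interval 0.170 to 0.404) without DEX and 1.89 (1.496 to 2.38) with DEX. Such intervals cover counting error only, not the spread between cultures or the sharing of reads among copies.

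Of the 63 members under a mean of 5 FPKM, 53 had whole fragment numbers. In 41 of these no column held more than 10 fragments, and the most was 31. Together they came to 289 fragments with control siRNA, 359 with control siRNA + DEX, 272 with GR siRNA and 310 with GR siRNA + DEX. At the depth of the GR siRNA column these stood for 431, 373, 272 and 382 fragments, so the GR siRNA column was the lowest. GR siRNA against control siRNA gave a ratio of 0.631 (0.533 to 0.748) without DEX and of 1.02 (0.877 to 1.20) with DEX. DEX gave 0.867 (0.740 to 1.02) in control siRNA cells and 1.41 (1.19 to 1.66) in GR siRNA cells. The intervals of the first and last of these ratios lie apart from 1 and rest on the same GR siRNA column. Over all 1376 genes of the table with a mean under 5 FPKM and whole fragment numbers, the 4 ratios in the same order were 1.09, 1.11, 1.02 and 1.04.

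By class, the ratio without DEX ran from 0.394 for H4 to 0.885 for H2A. For low-level H4 genes GR siRNA against control siRNA without DEX was 0.394 (0.265 to 0.579), from 75 fragments with control siRNA and 44 with GR siRNA, and 1.39 (0.982 to 1.96) with DEX. For H1 it was 0.532 (0.353 to 0.797) and 0.948 (0.646 to 1.39), and for H2B 0.682 (0.470 to 0.991) and 0.804 (0.571 to 1.12). For H2A it was 0.885 (0.596 to 1.32) and for H3 0.808 (0.544 to 1.20) without DEX, with intervals that include 1. All these intervals cover counting error only and are no test of a difference between cultures. The difference between classes was not tested. Of single low-level members, 7 of 53 had an interval wholly below 1 and 0 wholly above 1 for GR siRNA without DEX, beside 1.6% and 2.18% of the 1376 genes. The 7 were Hist1h1d, Hist1h1e, Hist1h3b, Hist1h4d, Hist1h4f, Hist2h2bb and Hist2h4. Under DEX the numbers were 1 (Hist2h2bb) and 0, beside 1.24% and 2.91%. For DEX in control siRNA cells 1 member (Hist1h2ae) lay above 1 and 3 (Hist1h1e, Hist1h3b and Hist1h4d) below it, beside 0.872% and 0.581% of the 1376 genes. For DEX in GR siRNA cells 4 (Hist1h1b, Hist1h4c, Hist1h4d and Hist1h4f) lay above and 0 below, beside 1.09% and 0.436%. An interval excludes 1 more easily where fragments are many, and the column with the most held a median of 7 fragments for the members and 3 for the 1376 genes, so the shares are not matched for depth.

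**Figure D5:**
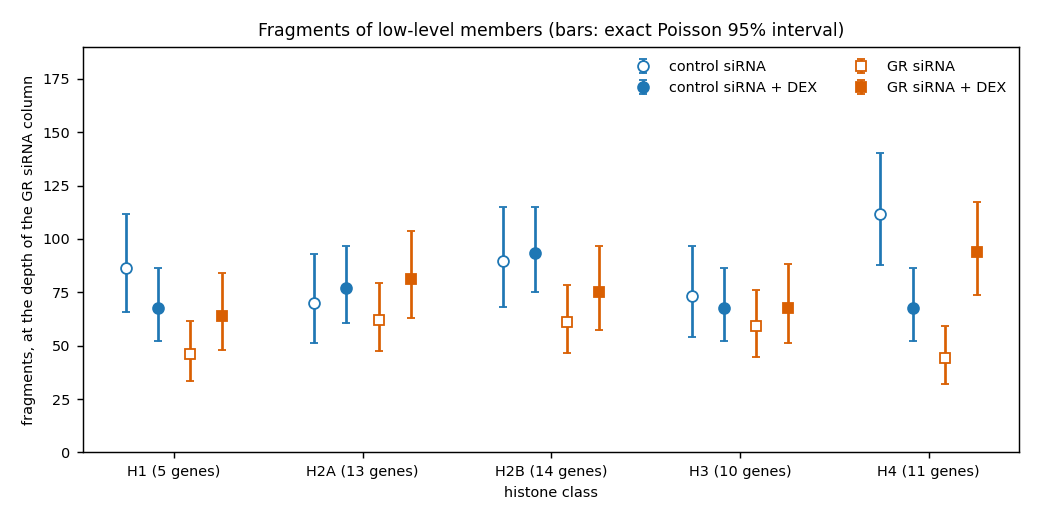
Fragments of the low-level members with whole fragment numbers, summed by histone class and scaled to the depth of the GR siRNA column (linear axis from 0), with 1 point per column and bars for the exact Poisson 95% interval. The H4 points fall from 112 with control siRNA to 44 with GR siRNA and stand at 93.7 with GR siRNA + DEX, while the intervals of H2A, of H2B and of H3 overlap across all 4 columns.

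Summed, the listed RNAs without a poly(A) tail stood in the same order of columns as the low-level histone genes. Few genes made up that sum. The low-level members summed to 29.0, 24.5, 18.3 and 26.4 FPKM in the order control siRNA, control siRNA + DEX, GR siRNA and GR siRNA + DEX. The 19 listed non-coding RNAs summed to 85.4, 58.6, 46.4 and 59.9 FPKM. Both sums were highest with control siRNA and lowest with GR siRNA. Of the 19 RNAs only 3, Malat1, Rmrp and Rpph1, had a mean of at least 5 FPKM, so the sum does not describe the list. Of 6 tested for GR siRNA without DEX, 3 were 1.5-fold lower and 1 higher, beside 2.54% and 2.36% of all genes. Of these 6, 2 passed the filter through 1 column. Rmrp was 17.2, 12.2, 1.77 and 10.4 FPKM, and Rpph1 was 18.8, 8.39, 4.81 and 10.1 FPKM, each again highest with control siRNA and lowest with GR siRNA. The nuclear RNA Malat1, at 43.9, 34.6, 36.0 and 30.95 FPKM, and the brain RNA Bc1, at 2.80, 0, 1.87 and 6.91 FPKM, were lowest in other columns. The part of untailed RNA in the low-level histone values was not tested.

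No tested gene of histone mRNA processing and transcription passed 1.5-fold. In no comparison did more than 2.62% of all genes pass it in either direction. A count of 0 in lists of 25 to 50 genes thus lies near the share of all genes. Of 34 tested members of that list, 0 were 1.5-fold higher or lower in any of the 4 comparisons, and their median log2 difference under GR siRNA was -0.04 without DEX and -0.06 under DEX, beside -0.01 for all genes in each. Hinfp, which encodes an activator of H4 genes, was 6.21, 6.78, 6.01 and 5.57 FPKM. Ccne2, for the cyclin E2 of the S phase entry, was 7.94, 7.45, 6.54 and 6.73 FPKM. The list of 50 DNA replication genes had medians of -0.09 and -0.11, again with 0 at 1.5-fold. The 25 mitosis genes had -0.33 and -0.28, with 25 of 25 lower without DEX and 23 of 25 with DEX and 0 past 1.5-fold. Of all genes tested, 5983 of 11325 were lower without DEX and 5877 of 11344 with DEX. Ccnb1, for the mitotic cyclin B1, was 95.5, 93.0, 68.5 and 70.4 FPKM, with both GR siRNA columns below both control columns. Of 28 chaperones 0 passed 1.5-fold either way, with medians of -0.07 and -0.09. Asf1b, an H3-H4 chaperone of dividing cells, was 30.8, 30.6, 23.3 and 24.1 FPKM, and Hat1, which acetylates new H4, was 48.1, 47.4, 40.4 and 40.5 FPKM.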

How the data were processed

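RNA sequencing of 4 groups of mouse lung endothelial cells gave 1 column each. The authors deposited FPKM per gene, made with TopHat2 and Cuffdiff on mm10 per the submitters' processing notes; the sources used here do not give versions, gene models, library selection, strand setting or what was done with the triplicates. Cuffdiff in general divides reads common to several genes by estimation, which bears on 40 of the 68 members, since at least 50% of their 31-mers occur in another gene, and 24 overlap an exon of another gene.

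Columns were matched to groups by name. Differences on log2(FPKM + 1), a scale that shrinks those of low genes, were counted at 1.5-fold where either compared column reached 1 FPKM; class sums were compared as log2 ratios with no pseudocount. With 1 column per group no test was possible, and the limma fit planned for replicate columns was not used. Fragment units were sought among the lowest value divided by 1 to 40, down to 0.02 FPKM; of 9 members above 0 without one, 5 are low-level. The steps were tested on simulated counts in which no reads were shared between genes, so that test does not cover the sharing of reads among members.

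The 68 members matched GENCODE M21 by symbol, and 67 matched 1 RefSeq gene. The stem-loop was searched by its 16-letter pattern after the stop codon. Members and 11 lists were chosen with earlier results of these data known. Named genes were any member, and Slbp, Npat, Pcna, Nr3c1 and the variants. Of each list, up to 4 genes with the highest mean could also be named. So could up to 4 with the largest difference among those of at least 5 FPKM in 1 column. Pecam1, Ptprc, Trim17, Lsm10, Lsm11, Sympk, Zfp473 and Rnu7 were named outside this rule after their values were seen. Alternatives changed the pseudocount, filter, scaling, fold and members. Python 3.11.15, pandas 2.3.3, numpy 2.4.6 and scipy 1.17.1 were used.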

Additional observations from a re-analysis of the deposited data

Results flagged for a closer look

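In Hist1h2an, GR siRNA against control siRNA was -1.55 on the log2(FPKM + 1) scale without DEX and 0.85 with DEX, so the sign turned between the DEX states. In Hist1h4d, DEX against no DEX was -0.80 with control siRNA and 0.76 with GR siRNA, so the sign turned between the siRNAs. With 1 column per group, neither difference was tested. Hist1h2an shares 89.0% of its 31-mers with other genes, and Hist1h4d rests on 23, 15, 10 and 19 fragments in the order control siRNA, control siRNA + DEX, GR siRNA and GR siRNA + DEX.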

How the results depend on the processing

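No paired analysis was possible because each group has 1 column. For the same reason no column could be left out. With no replicates, a log2 value was taken to have moved when it shifted by 1.5-fold or more, a wide margin within which 97 class sum values and 28 medians lay and 7 class sum values did not. Within it the medians still varied. For GR siRNA without DEX the median of -0.49 was -1.04 with a pseudocount of 0.1 FPKM, -0.26 among members with under 50% of 31-mers shared, -0.14 with a filter of 5 FPKM and -0.04 with no filter. With no filter the other medians were also near 0, at 0.02 for GR siRNA under DEX, 0.00 for DEX in control siRNA cells and 0.09 for DEX in GR siRNA cells. The number of members past 1.5-fold also varied. For GR siRNA without DEX it was 7, and became 11 with a pseudocount of 0.1 FPKM, 1 with a filter of 5 FPKM, 11 after rescaling to TPM, 3 among members with under 50% of 31-mers shared and 4 at 2-fold. With DEX it was 2, and became 4, 1, 4, 0 and 0 under the same settings and 1 without Hist1h2an. For DEX in control siRNA cells it was 3, and became 7 with the pseudocount of 0.1 FPKM, 0 with the filter of 5 FPKM, 8 after rescaling to TPM and 0 at 2-fold. For DEX in GR siRNA cells it was 4, and became 1 with the filter of 5 FPKM, 2 among members with under 50% shared and 2 at 2-fold. Rescaling to TPM raises every value, so more members pass the filter; no class sum ratio moved by more than 0.0749 log2 under it.

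Without its highest member, the log2 ratio for GR siRNA without DEX was -0.83 for H1, -1.11 for H2A and -1.45 for H4, from -0.16, -0.45 and -0.60. With Hist1h2an left out instead, an alternative added after seeing the data, the H2A value was 0.022, and under DEX it went from 0.43 to 0.016. H1 under DEX turned from 0.14 to -0.08 without its highest member. For DEX in GR siRNA cells the value without the highest member was 1.89 for H2A and 1.18 for H4, from 0.93 and 0.56, and 0.016 for H2A without Hist1h2an. For DEX in control siRNA cells the H3 value went from -0.10 to 0.53 when only members of at least 1 FPKM in all columns were kept, which left Hist1h3c. Depth limits the low-level members most, since 41 of 53 had at most 10 fragments in every column.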
